A study of Mus musculus with 4 samples.

Results

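The genes described here are 10 genes of blood and lymphatic vessels, chosen by name, with earlier results of these data known, out of 50686 genes counted in the hip and 54838 in the knee. They were the vascular endothelial growth factor (VEGF) ligands Vegfa, Vegfb and Vegfc, the VEGF receptors Kdr, Flt1 and Flt4, the angiopoietin receptor Tek, the endothelial surface genes Pecam1 and Cdh5, and the lymphatic surface gene Lyve1. Poly-A RNA-seq was done on 4 libraries labelled as mouse articular cartilage, with 1 library per condition, and all 4 carried the floxed Cbfb allele. The hip control was from Cbfβ f/f mice, which carry no Cre, and its label gives no treatment, although the methods describe injections for that genotype too. Its partner was from tamoxifen-injected Cbfβ f/f;Col2α1-CreERT mice, in which Cre is driven by a cartilage collagen promoter. The knee control was from oil-injected Cbfβ f/f;Aggrecan-CreERT mice, and its partner from tamoxifen-injected mice of that genotype, in which Cre is driven by the promoter of a cartilage proteoglycan. All mice were male, aged 6 weeks for the hip and 12 weeks for the knee by the legends, although another age is also given for the hip. The hip libraries thus also differed in Cre and, by the labels, in tamoxifen, and the joints differed in age, in the Cre line, in what the control was and in the layout and gene set of their count tables.

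VEGF-A is the main signal for new blood vessels and acts through VEGFR2, the product of Kdr, while VEGFR1, the product of Flt1, binds VEGF-A and VEGF-B tightly and limits how much VEGF-A reaches VEGFR2. VEGF-C acts through VEGFR3, the product of Flt4, on lymphatic vessels. Healthy articular cartilage has no vessels of its own and takes its supply from synovial fluid and the bone beneath it, and the spread of vessels into it from bone and synovium is a known feature of osteoarthritis.

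Counts on genes ranged from 34264456 to 38473120 per library, and 3 counts, taken as the floor, came to 0.0780 to 0.0876 CPM, which is the count scaled to a library total of 1e6. All 10 genes lay above that floor in every library. The targeted gene, Cbfb, had 2548 counts in the hip control and 2946 in the hip library labelled Cbfb-deficient, and 3796 and 4572 in the knee pair, so gene-level counts gave no check of exon loss and the libraries are named by their labels. Col2a1, the main cartilage collagen, had 354 and 228 counts in the hip pair against 87367 and 33204 in the knee pair, while skeletal muscle markers took 23.3% and 22.8% of the hip counts against 1.82% and 3.76% of the knee counts. Chondrocyte markers as a list summed to 259 and 106 CPM in the hip pair against 6270 and 3106 CPM in the knee pair, so the hip libraries held little of the RNA that defines their label. The notes on RNA isolation name osteoblasts. In bulk RNA, fewer cells of a type and less RNA per cell cannot be told apart, and a vessel gene here may come from any tissue taken with the cartilage.

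The promoters of the VEGF system are shown for the ligands and receptors that moved apart in the hip, because Cbfb is the partner of the DNA-binding Runx proteins. Promoter windows of 300 bases, from 250 before to 50 after an annotated start, were in the RefSeq-derived table of GRCm38.p6 for 7 of the 10 genes, in 8 windows since Vegfa has 2. Pecam1, Cdh5 and Lyve1 had no entry there. Of the printed windows, that of Vegfa, the one farther upstream, is chr17:46032328-46032627, that of Vegfb is chr19:6987602-6987901, that of Flt1 is chr5:147725962-147726261 and that of Kdr is chr5:75978406-75978705, all on the minus strand. Each is written 5′ to 3′ along its gene, with capitals for matches to the motifs that were searched.
Vegfa: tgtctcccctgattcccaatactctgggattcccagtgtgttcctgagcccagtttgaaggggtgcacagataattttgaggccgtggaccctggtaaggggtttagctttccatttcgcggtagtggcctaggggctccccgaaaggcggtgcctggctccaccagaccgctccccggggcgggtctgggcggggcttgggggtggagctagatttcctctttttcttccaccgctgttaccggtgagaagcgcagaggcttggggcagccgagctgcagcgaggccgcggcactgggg
Vegfb: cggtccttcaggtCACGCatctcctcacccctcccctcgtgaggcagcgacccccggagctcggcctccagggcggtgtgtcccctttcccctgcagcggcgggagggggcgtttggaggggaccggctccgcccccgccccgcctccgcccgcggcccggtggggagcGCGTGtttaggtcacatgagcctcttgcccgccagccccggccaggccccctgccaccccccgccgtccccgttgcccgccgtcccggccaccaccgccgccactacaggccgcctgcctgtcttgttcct
Flt1: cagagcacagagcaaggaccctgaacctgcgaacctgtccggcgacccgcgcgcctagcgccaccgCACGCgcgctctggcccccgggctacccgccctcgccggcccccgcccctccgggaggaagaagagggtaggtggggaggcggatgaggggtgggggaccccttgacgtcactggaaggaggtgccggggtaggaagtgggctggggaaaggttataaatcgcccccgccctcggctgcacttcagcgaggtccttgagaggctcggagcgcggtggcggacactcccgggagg
Kdr: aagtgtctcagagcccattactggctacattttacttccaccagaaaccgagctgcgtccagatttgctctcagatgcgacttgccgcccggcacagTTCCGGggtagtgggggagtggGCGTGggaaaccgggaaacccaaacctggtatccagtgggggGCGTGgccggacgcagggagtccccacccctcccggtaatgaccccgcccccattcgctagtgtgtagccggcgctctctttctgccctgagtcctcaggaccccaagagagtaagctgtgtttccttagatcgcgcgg

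The core of the Runx site, TGTGGT or its reverse complement ACCACA, was in 0 of the 8 windows, while 16.8% of all 32851 promoters in the table held it. An Ets core, CCGGAA or TTCCGG, was in 1 window, that of Kdr, at 153 bases before the start, and 14.9% of all promoters held it. The core letters bound by hypoxia-inducible factors, ACGTG or GCGTG on either strand, were in 4 of the 8 windows, those of Flt1, Kdr, Vegfb and the second Vegfa window, and in 43.8% of all promoters. That second window, chr17:46025114-46025413, lies downstream along the gene of the printed Vegfa window, which held 0 such matches. This last motif was chosen after the values were seen. The motifs shared no matched bases in the printed windows, and a match of this kind is a description of the letters alone.

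Counts were scaled within each joint by edgeR's TMM method, and each log2 ratio compares the library labelled Cbfb-deficient with its control after 0.5 was added to each count. The intervals given are 95% Clopper-Pearson intervals, which cover counting error only. With 1 library per condition there is no replicate error and no test was run, so each ratio compares 2 libraries. A gene was called higher or lower where both libraries together held at least 10 counts, the log2 ratio was 1 or more in either direction and its interval left out 0.

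In the hip, Vegfa, Flt1 and Lyve1 were called higher in the library labelled Cbfb-deficient, and 0 of the 10 genes were called lower. Among all 19856 genes tested in the hip, 20.2% were called higher and 16.3% lower. The intervals of 4 genes lay above 0 and those of 3 lay below it, beside 37.3% and 33.7% of all genes, and the median log2 ratio of the 10 genes was -0.04 against 0.01 over all genes. In the knee, 0 of the 10 genes were called in either direction, while 9.00% of 21131 genes were called higher and 6.81% lower. There, 8 of the 10 intervals lay above 0 and 0 below it, beside 31.9% and 29.7% of all genes, with a median of 0.49 against 0.02. An interval leaves out 0 more readily at high counts, and all genes here include those with as few as 10 over the pair. The hip genes thus spread to both sides, and the knee genes sat mostly on the high side at sizes short of the call. These counts for the hip rest on the scaling, since upper-quartile scaling left 1 of the 10 genes called higher and put 1 lower.

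**Figure D1:**
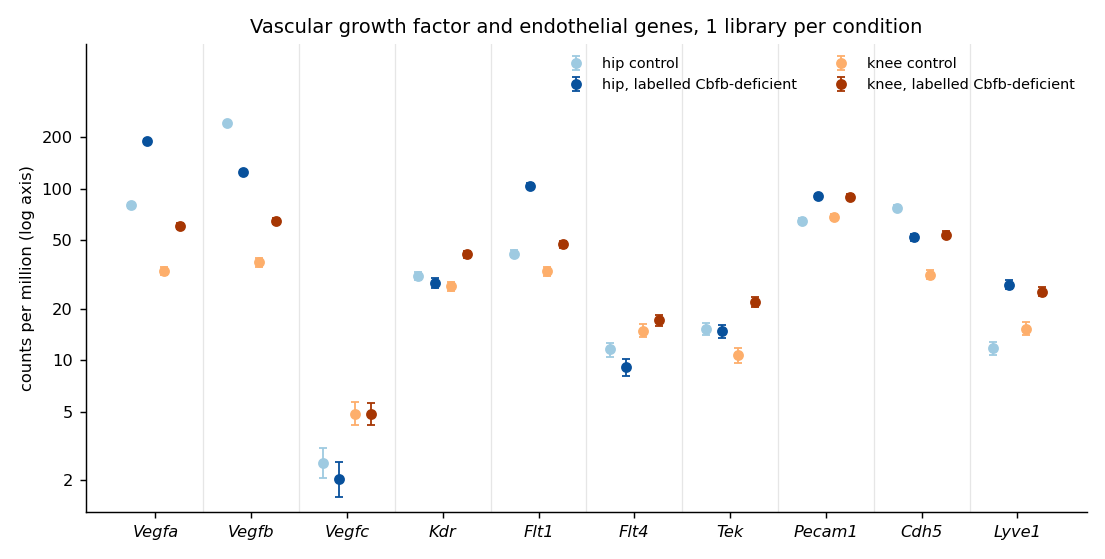
CPM (log axis) of the 10 genes in each of the 4 libraries, with exact 95% Poisson intervals for counting error. Vegfa, Flt1 and Lyve1 are higher in the hip library labelled Cbfb-deficient than in its control, Vegfb and Cdh5 are lower there, and in the knee every gene but Vegfc has the higher CPM in the library labelled Cbfb-deficient, with the sign of Flt4 depending on the scaling.

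Among the ligands, Vegfa (ENSMUSG00000023951, GRCm39 chromosome 17, 46327919 to 46343309) had 3079 counts in the hip control and 6562 in its partner, and 1136 and 2321 in the knee pair. In CPM these were 80.0, 189.7, 33.2 and 60.7. Both libraries labelled Cbfb-deficient were higher than their controls. The log2 ratio was 1.29 in the hip (1.23 to 1.35), or 2.44-fold, and 0.69 in the knee (0.59 to 0.79), or 1.61-fold. In the hip it ranged from 0.94 with upper-quartile scaling to 1.63 once a trend over exon length and GC content was taken out, and it met the rule for a call under 6 of 7 alternatives.

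Vegfb, whose product binds VEGFR1 and is best known in heart and skeletal muscle, behaved otherwise in the hip. Vegfb (ENSMUSG00000024962, chromosome 19 from 6958447 to 6965127) had 9300 and 4329 counts in the hip pair and 1274 and 2465 in the knee pair, which were 242, 125, 37.2 and 64.5 CPM. It was the most abundant ligand in the hip control and lower in its partner, with a log2 ratio of -0.91 (-0.96 to -0.85), or 1.87-fold lower, just short of the call. In the knee it was higher, with a log2 ratio of 0.61 (0.51 to 0.71). The hip value was -1.25 with upper-quartile scaling, where it was called lower, and -0.40 once the trend over length and GC was taken out.

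Per kilobase of exon, the hip control held 74.3 CPM of Vegfb and 18.6 of Vegfa, and the hip library labelled Cbfb-deficient held 38.5 and 44.1, so the order of these ligands was exchanged and their counting intervals did not overlap in either library. In the knee, Vegfb stayed above Vegfa per kilobase, at 11.4 against 7.71 CPM in the control and 19.8 against 14.1 in its partner. A ratio of the counts of a pair of genes within 1 library does not depend on the scaling between libraries, though the length and GC correction can move its change, and such pairs were chosen after the values were seen. The ratio of Vegfa to Vegfb was 0.331 in the hip control and 1.52 in its partner, a log2 change of 2.19 (2.11 to 2.28), or 4.58-fold. In the knee it was 0.892 and 0.942, a log2 change of 0.08 with an interval that included 0 (-0.06 to 0.22).

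Vegfc (ENSMUSG00000031520, chromosome 8 from 54530257 to 54640131) was the scarcest of the 10 genes per kilobase in each library, with 97, 70, 167 and 185 counts. The level was 2.52 and 2.02 CPM in the hip pair and 4.87 and 4.84 CPM in the knee pair. Its log2 ratios of -0.27 (-0.74 to 0.19) and -0.19 (-0.50 to 0.12) both had intervals that included 0, although upper-quartile scaling gave a hip value of -0.62 (-1.08 to -0.16). Of the ligands outside the 10 genes, Vegfd, which also acts on VEGFR3, was called higher in the hip, with 289 and 574 counts and a log2 ratio of 1.19 (0.98 to 1.40), a call lost with upper-quartile scaling at 0.84. In the knee it had 75 and 130 counts and a log2 ratio of 0.45. Placental growth factor, Pgf, a ligand of VEGFR1, had a hip log2 ratio of -0.82 and was called lower in the knee, with 386 and 206 counts and a log2 ratio of -1.24 (-1.50 to -0.998). The whole list of 5 ligands had 2 genes called higher and 0 lower in the hip, beside 20.2% and 16.3% of all genes, with a median of -0.27. In the knee 0 were called higher and 1 lower, beside 9.00% and 6.81% of all genes, with a median of 0.45.

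**Figure D2:**
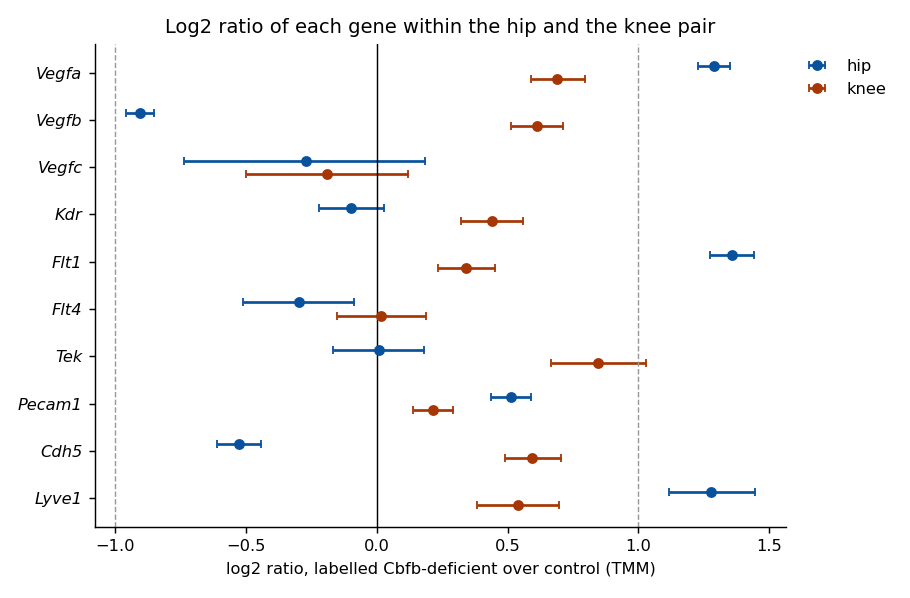
Log2 ratio of the library labelled Cbfb-deficient over its control for each of the 10 genes (horizontal axis, TMM scaling), hip in blue and knee in brown, with 95% counting intervals and dashed lines at -1 and 1. In the hip Vegfa, Flt1 and Lyve1 lie beyond 1 and Vegfb lies at -0.91, while all knee values lie between -0.19 and 0.85.

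Of the receptors, Flt1 moved furthest in the hip. Flt1 (ENSMUSG00000029648, chromosome 5 from 147498414 to 147662826) had 1607 and 3594 counts in the hip pair and 1133 and 1817 in the knee pair, which were 41.8, 104, 33.1 and 47.5 CPM. In each joint the library labelled Cbfb-deficient was the higher. Its log2 ratio was 1.36 in the hip (1.27 to 1.44), the largest of the 10 genes there, and 0.34 in the knee (0.23 to 0.45), where the length and GC correction gave 0.11. It was called higher in the hip under 7 of 7 alternatives, at 1.01 to 1.36.

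Kdr, by contrast, did not rise in the hip. Kdr (ENSMUSG00000062960, chromosome 5 from 76093487 to 76139884) had 1194 and 973 counts in the hip pair and 922 and 1582 in the knee pair, or 31.0, 28.1, 26.9 and 41.4 CPM. Its hip log2 ratio of -0.10 (-0.22 to 0.03) had an interval that included 0, but it lay below 0 by library size alone (-0.14), DESeq2 size factors (-0.13), upper-quartile scaling (-0.44) and the length and GC correction (-0.20). The knee value was 0.44 (0.32 to 0.56), or 0.27 with that correction. The ratio of Flt1 to Kdr counts was 1.35 in the hip control and 3.69 in its partner, a log2 change of 1.46 (1.31 to 1.61). In the knee it was 1.23 and 1.15, with a log2 change of -0.10 (-0.26 to 0.06). Per kilobase of exon this ratio was 0.906 and 2.49 in the hip pair and 0.828 and 0.773 in the knee pair. Kdr was thus the higher per kilobase in the hip control, where the counting intervals overlapped, and in both knee libraries. Flt1 was the higher in the hip library labelled Cbfb-deficient, which stood apart. Against the ligand, the ratio of Vegfa to Kdr counts was 2.58 and 6.74 in the hip pair and 1.23 and 1.47 in the knee pair, with log2 changes of 1.39 (1.25 to 1.52) and 0.25 (0.10 to 0.41), or 1.83 and 0.44 with the length and GC correction.

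Flt4, the receptor of lymphatic endothelium, was low throughout. Flt4 (ENSMUSG00000020357, chromosome 11 from 49500090 to 49543582) had 444 and 315 counts in the hip pair and 509 and 652 in the knee pair, which were 11.5, 9.11, 14.9 and 17.1 CPM. Its log2 ratio was -0.30 in the hip (-0.51 to -0.09) and 0.02 in the knee (-0.15 to 0.19). The hip value ranged from -0.64 with upper-quartile scaling to -0.12 with the length and GC correction. In the knee its sign held under 4 of 7 alternatives, so no direction is given there. The co-receptor gene Nrp1 had log2 ratios of -0.05 in the hip, with an interval that included 0, and 0.57 in the knee. Nrp2, the co-receptor of VEGFR3, had values of 0.17 and -0.41, the latter from 3899 and 3721 counts, and the hip value was -0.17 with upper-quartile scaling. Over the 5 receptors and co-receptors, 1 was called higher and 0 lower in the hip, beside 20.2% and 16.3% of all genes, with a median of -0.05. In the knee 0 were called in either direction, beside 9.00% and 6.81% of all genes, with a median of 0.34.

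Tek encodes TIE2, the receptor of the angiopoietins, which steady or loosen the vessel wall. Tek (ENSMUSG00000006386, chromosome 4 from 94627291 to 94763224) had 583 and 511 counts in the hip pair and 366 and 833 in the knee pair, which were 15.2, 14.8, 10.7 and 21.8 CPM. The hip libraries had overlapping counting intervals, with a log2 ratio of 0.01 (-0.17 to 0.18). That value was -0.34 (-0.51 to -0.16) with upper-quartile scaling and -0.23 (-0.41 to -0.060) with the length and GC correction. In the knee Tek had the largest ratio of the 10 genes, 0.85 (0.67 to 1.03), or 1.80-fold, and by library size alone it was 1.03 and called. Its partner receptor gene Tie1 had 2302 and 1428 hip counts, a log2 ratio of -0.49, and 1326 and 2002 knee counts, a log2 ratio of 0.25. The ratio of Tek to Tie1 counts was higher in the library labelled Cbfb-deficient of each joint, from 0.253 to 0.358 in the hip and from 0.276 to 0.416 in the knee. These were log2 changes of 0.50 (0.30 to 0.69) and 0.59 (0.39 to 0.80), and with the length and GC correction the hip change turned to -0.15.

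Of the ligand genes of TIE2, Angpt1, which steadies vessels, had 603 and 1057 counts in the hip pair and 709 and 1214 in the knee pair, with log2 ratios of 1.01 (0.86 to 1.15) and 0.44 (0.30 to 0.57). The hip value was called, but it was 0.96 by library size alone, 0.66 with upper-quartile scaling and -0.047 once the trend over length and GC was taken out. Angpt2, which opposes Angpt1 in most settings, had log2 ratios of 0.70 (0.26 to 1.15) from 74 and 105 counts in the hip and -0.28 from 205 and 213 counts in the knee. Angpt4, a further ligand, was called lower in the hip at -1.20 (-2.16 to -0.37), a call lost with the length and GC correction at -0.54, and was -0.41 in the knee. Ptprb, the endothelial phosphatase that acts on TIE2, was called higher in the hip, at 1.26 (1.15 to 1.38), and was 0.97 (0.86 to 1.09) in the knee. Its hip call was lost with upper-quartile scaling, at 0.92, and with the length and GC correction, at 0.69. Of the 6 genes of this list, 2 were called higher and 1 lower in the hip, beside 20.2% and 16.3% of all genes, with a median of 0.35. In the knee 0 were called in either direction, beside 9.00% and 6.81% of all genes, with a median of 0.35.

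Pecam1 and Cdh5, both used as markers of endothelium, parted in the hip. Pecam1 encodes CD31, which platelets and some white blood cells also carry, and Cdh5 encodes VE-cadherin, the junction protein of endothelial cells. Pecam1 (ENSMUSG00000020717, chromosome 11 from 106543689 to 106641454) had 2509 and 3124 counts in the hip pair and 2338 and 3435 in the knee pair, which were 65.2, 90.3, 68.2 and 89.9 CPM. Its log2 ratios were 0.51 in the hip (0.44 to 0.59) and 0.22 in the knee (0.14 to 0.29). With the length and GC correction they were 0.28 and 0.032 (-0.044 to 0.11), so the knee interval then included 0, and with upper-quartile scaling they were 0.17 and 0.099.

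Cdh5 (ENSMUSG00000031871, chromosome 8 from 104828231 to 104871143) had 2988 and 1807 counts in the hip pair and 1081 and 2067 in the knee pair, which were 77.7, 52.3, 31.5 and 54.1 CPM. In the hip it was lower in the library labelled Cbfb-deficient, at -0.53 (-0.61 to -0.44), and higher in that of the knee, at 0.60 (0.49 to 0.70). The hip value was -0.87 with upper-quartile scaling and -0.03 once the trend over length and GC was taken out, while the knee value stayed between 0.48 and 0.78. The ratio of Pecam1 to Cdh5 counts was 0.840 and 1.73 in the hip pair, a log2 change of 1.04 (0.93 to 1.16), and 2.16 and 1.66 in the knee pair, a log2 change of -0.38 (-0.51 to -0.25). With the length and GC correction the changes were 0.31 and -0.58. The ratios moved in opposite directions in the joints, and the difference between the joints was not tested.

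**Figure D3:**
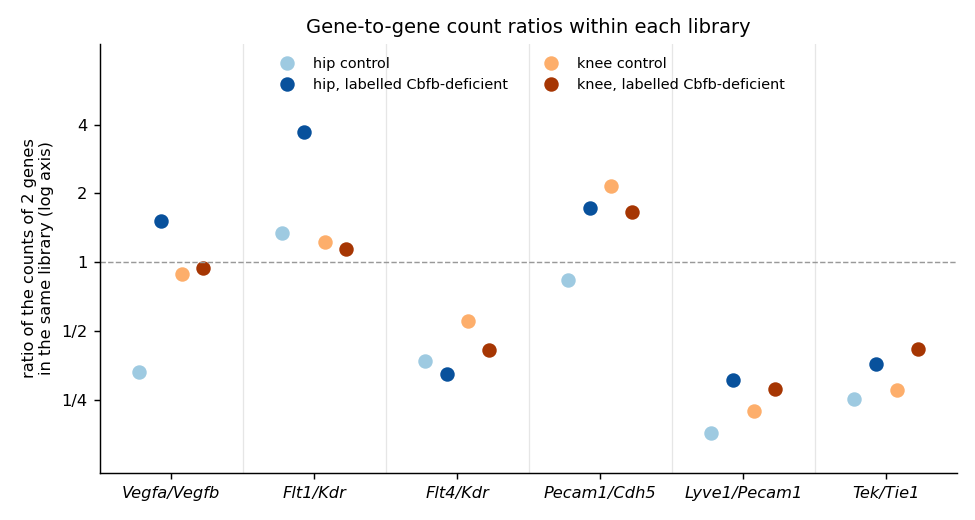
Ratio of the counts of a pair of genes within each of the 4 libraries (log axis), which no scaling between libraries can change, although the length and GC correction lowers the hip change of Pecam1/Cdh5 to 0.31. Vegfa/Vegfb, Flt1/Kdr and Pecam1/Cdh5 are each higher in the hip library labelled Cbfb-deficient than in the hip control, by log2 changes of 2.19, 1.46 and 1.04, and the knee pair differs by -0.38 to 0.08 for the same ratios.

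Other cell types that carry Pecam1 were followed by their markers. Platelet and megakaryocyte markers, none at 0, summed to 52.2 and 29.1 CPM in the hip pair and 1381 and 2027 CPM in the knee pair. Of the 10 markers, 0 were called higher and 7 lower in the hip, beside 20.2% and 16.3% of all genes, with a median of -1.40. In the knee 1 was called higher and 0 lower, beside 9.00% and 6.81% of all genes. Macrophage markers, none at 0, summed to 285 and 198 CPM in the hip pair and 3396 and 3936 CPM in the knee pair. Of 14 such markers, set against the same shares of all genes, 1 was called higher and 7 lower in the hip, with a median log2 ratio of -1.005. In the knee 2 were called higher and 0 lower, with a median of 0.23. Both lists were thus lower in the hip library in which Pecam1 was higher, and their sums were higher in the knee library labelled Cbfb-deficient. Their part in the Pecam1 values was not tested.

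Of the 19 endothelial junction and surface genes, 2 were called higher and 1 lower in the hip, beside 20.2% and 16.3% of all genes. There 8 intervals lay above and 8 below 0, with a median of 0.10. S1pr1, a receptor for sphingosine 1-phosphate in endothelium, was called higher, with 713 and 1317 counts and a log2 ratio of 1.08 (0.95 to 1.22), while Icam2, an endothelial adhesion gene, was called lower, with 230 and 82 counts and -1.28 (-1.67 to -0.92). The call of S1pr1 was lost with upper-quartile scaling, at 0.74. The tight-junction gene Cldn5 was -0.45, and Emcn, a sialomucin of capillaries and veins, was 0.23, but the length and GC correction turned both, to 0.32 (0.16 to 0.48) and -0.76 (-0.99 to -0.53), and upper-quartile scaling turned Emcn to -0.11. In the knee, 2 of the 19 were called higher and 0 lower, beside 9.00% and 6.81% of all genes, with a median of 0.28. Those 2 were the selectin genes, which let white blood cells roll on activated endothelium. Sele, with 32 and 121 counts, had a log2 ratio of 1.56 (1.01 to 2.19), and Selp, with 196 and 587 counts, 1.24 (1.01 to 1.48). Sele was also called higher in the hip, from 7 and 21 counts, at 1.72 (0.49 to 3.26), and Selp was 0.59 there. Platelets hold Selp as well. Cldn5 and Emcn were -0.26 and -0.57 in the knee, where 11 intervals of the list lay above and 7 below 0.

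Lyve1 encodes a hyaluronan receptor of lymphatic endothelium that some tissue macrophages also carry. Lyve1 (ENSMUSG00000030787, chromosome 7 from 110448585 to 110462460) had 450 and 953 counts in the hip pair and 522 and 960 in the knee pair, which were 11.7, 27.6, 15.2 and 25.1 CPM. In both joints the library labelled Cbfb-deficient was the higher. The log2 ratio was 1.28 in the hip (1.12 to 1.45), or 2.43-fold, and 0.54 in the knee (0.38 to 0.70), or 1.45-fold. The hip value was 0.93 with upper-quartile scaling, below the call, and met the rule under 6 of 7 alternatives. The ratio of Lyve1 to Pecam1 counts was 0.179 and 0.305 in the hip pair and 0.223 and 0.279 in the knee pair, with log2 changes of 0.77 (0.59 to 0.94) and 0.32 (0.15 to 0.50), or 0.82 and 0.61 with the length and GC correction.

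The other lymphatic genes gave no single direction. Prox1, the transcription factor that sets lymphatic identity, had 79 and 90 hip counts, a log2 ratio of 0.38 with an interval that included 0, and 20 and 60 knee counts, where it was called higher at 1.22 (0.49 to 2.05). Pdpn, which is podoplanin and is also made by osteocytes and fibroblasts, was -0.94 in the hip and -0.47 in the knee. Mmrn1, which lymphatic endothelium and platelets make, was 0.86 and 0.71, Reln was called higher in the hip at 1.25 (0.90 to 1.61), and Foxc2, a factor of lymphatic valves, was called lower there at -1.01 (-1.60 to -0.47). The length and GC correction ended both hip calls, with Reln at 0.88 and Foxc2 at -0.33 (-0.92 to 0.21), upper-quartile scaling ended that of Reln at 0.90, and adding 2 to each count ended that of Foxc2 at -0.98. Ccl21a had too few counts to be tested. Of the 9 lymphatic genes tested, 2 were called higher and 1 lower in the hip, beside 20.2% and 16.3% of all genes, with a median of 0.32. In the knee 1 was called higher and 0 lower, beside 9.00% and 6.81% of all genes, with a median of 0.35. Among macrophage genes that can accompany Lyve1, Cd163 had 241 and 462 hip counts, a log2 ratio of 1.14 (0.91 to 1.37), and was 0.49 in the knee, beside 1.28 and 0.54 for Lyve1. With upper-quartile scaling the hip value of Cd163 was 0.79 and not called. Among 14 macrophage markers 7 were called lower in the hip and Cd163 was the 1 called higher, with 10 intervals below and 3 above 0. Folr2 had log2 ratios of -1.60 from 57 and 16 counts and 1.89 from 19 and 91 counts. Whether these cells had a part in the Lyve1 values was not tested.

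Per kilobase of exon, the order of the 10 genes was kept only in part. Flt1 ranked 6 and 5 in the hip pair and 7 and 8 in the knee pair, while Kdr ranked 5 and 7, and 6 and 6. Vegfb led in 3 libraries and Vegfa in the hip library labelled Cbfb-deficient. Cdh5 and Pecam1 followed Vegfa and Vegfb throughout, at 17.7 and 6.52 CPM per kilobase in the hip control, 11.9 and 9.03 in its partner, 7.20 and 6.82 in the knee control and 12.3 and 8.98 in its partner. Vegfc was last in all 4 libraries, at 0.708 to 1.70 CPM per kilobase. In the hip control, the counting intervals of Vegfa and Cdh5 overlapped, as did those of each neighbour from Kdr through Flt1 and Lyve1 to Tek. In the knee control they overlapped from Vegfa through Cdh5 to Pecam1, and from Flt4 through Tek to Vegfc. All neighbours were apart in the hip library labelled Cbfb-deficient, and in that of the knee the intervals overlapped for Tek with Flt1 and for Flt4 with Vegfc. Levels set side by side across the joints carry the differences between their count tables in layout and gene set, which TMM within a pair does not remove.

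The wider vascular programme was read from 10 lists that hold 106 genes, of which 105 had enough counts in each pair. In the hip, 23 were called higher and 15 lower, with a median of 0.23, and in the knee 9 were called higher and 3 lower, with a median of 0.29. Without the 10 genes the counts were 20 and 15 of 95 in the hip and 9 and 3 of 95 in the knee. The share called in either direction over the 105 genes was 36.2% in the hip beside 36.5% of all genes, and 11.4% in the knee beside 15.8%. The hip share was near that of all genes. With upper-quartile scaling 7 of the 105 genes were called higher and 23 lower in the hip, beside 13.97% and 24.0% of all genes, and 7 higher and 4 lower in the knee, beside 7.30% and 8.40%.

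**Figure D4:**
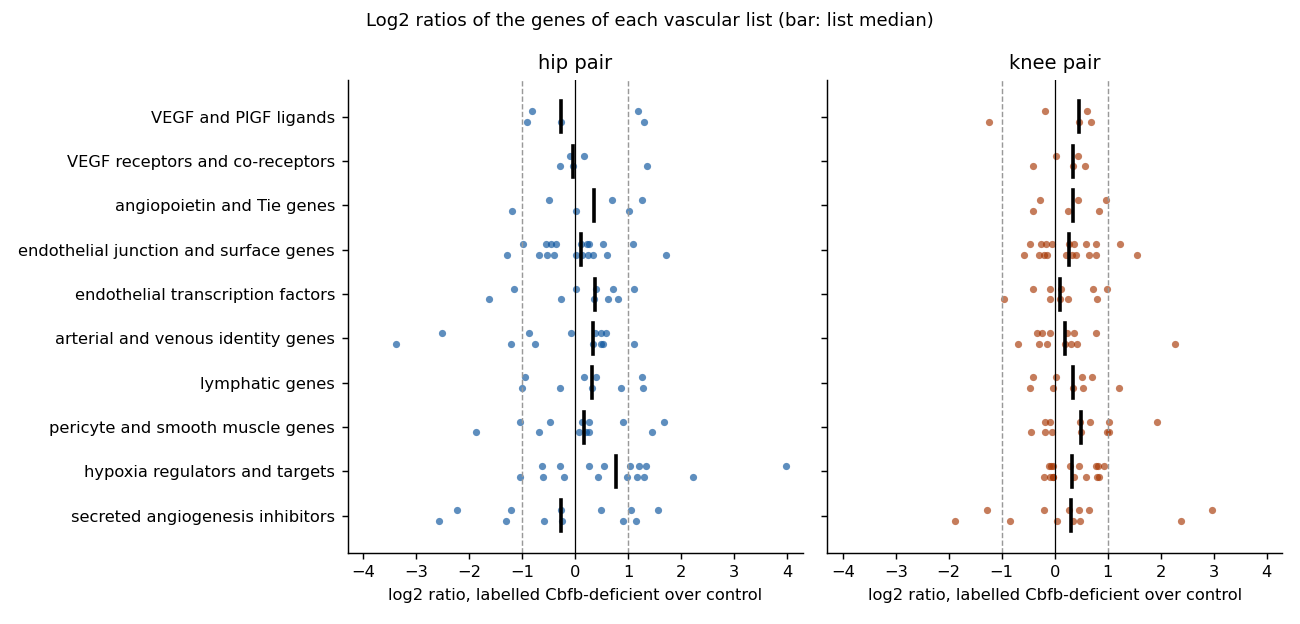
Log2 ratio of each gene of the 10 vascular lists in the hip (left) and knee (right), with a black bar at the list median and dashed lines at -1 and 1. The hypoxia list has the highest hip median, 0.76, the inhibitor and ligand lists have hip medians of -0.26 and -0.27, and all list medians of the knee lie between 0.11 and 0.49.

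Under TMM scaling the hypoxia list had more genes called higher than lower in the hip. VEGF-A is a classic target of hypoxia-inducible factors, whose subunits are encoded by Hif1a, Epas1 and Arnt. Of 16 regulators and targets, 7 were called higher and 1 lower in the hip, beside 20.2% and 16.3% of all genes, with 11 intervals above and 5 below 0 and a median of 0.76. Hif1a, Arnt, Adm and Pdk1, all among those 7, lost their calls with upper-quartile scaling. Car9 was among the 7 from 1 and 20 counts, and Ankrd37 at 1.33 (0.74 to 1.97) from 34 and 75 counts. The list's summed level was 4604 CPM in the hip control and 3350 CPM in its partner, against 1788 and 2195 CPM in the knee pair. Ldha alone held 2991 and 1398 CPM of the hip sums, and the other 15 genes summed to 1613 CPM in the hip control and 1951 CPM in its partner. In the knee 0 were called in either direction, beside 9.00% and 6.81% of all genes, with a median of 0.33. Hif1a had 290 and 580 counts in the hip pair, or 1.20 (0.99 to 1.41) on the log2 scale, and -0.08 in the knee. Arnt was called higher in the hip at 1.03 (0.94 to 1.13). Egln3, an oxygen sensor that these factors induce, had 2627 and 10732 hip counts, a log2 ratio of 2.23 (2.17 to 2.29), and 0.81 in the knee. The hip call of Hif1a was lost with the length and GC correction, at 0.26 (0.05 to 0.47), and with upper-quartile scaling, at 0.85. That of Arnt was lost under these, at 0.78 and 0.69, and by library size alone, at 0.99. Pdk1, which holds pyruvate back from the mitochondria, was called higher in the hip at 1.29 (1.21 to 1.38), as was Adm, which encodes the vessel-widening peptide adrenomedullin, at 1.16 (0.77 to 1.56). With upper-quartile scaling Pdk1 was 0.95 and Adm 0.81, neither called, and with the length and GC correction Pdk1 was 0.90. Ldha, the lactate dehydrogenase of glycolytic muscle, went the other way in the hip, with 115073 and 48355 counts and a log2 ratio of -1.05 (-1.07 to -1.04), and was -0.03 in the knee. The hip value became -0.66, not called, with the length and GC correction, and the knee value 0.15 by library size alone. Epas1 was 0.54 in the hip and 0.84 in the knee. Muscle is rich in Ldha. Muscle markers took 23.3% and 22.8% of the hip counts, with 9 of 24 intervals above and 14 below 0 and 3 markers called higher and 5 lower, and their part in these values was not tested.

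Arterial and venous identity genes held the lowest hip ratio of the 10 lists. Aplnr, the apelin receptor of venous and sprouting endothelium, had 450 and 37 counts, a log2 ratio of -3.39 (-3.93 to -2.92), and its ligand gene Apln had 62 and 9 counts, a log2 ratio of -2.52 (-3.78 to -1.57). In the knee both were higher in the library labelled Cbfb-deficient without a call, at 0.36 from 460 and 747 counts and at 0.79 from 101 and 221 counts. Nr2f2, a factor of venous identity, was called higher in the hip at 1.10 (0.92 to 1.29), a call lost with upper-quartile scaling, at 0.76, and with the length and GC correction, at 0.54. Notch1, the receptor that guides arterial fate, was called higher in the knee, with 227 and 1383 counts and a log2 ratio of 2.26 (2.06 to 2.48), and was 0.49 in the hip. The arterial ligand gene Efnb2 was 0.58 in the hip and -0.70 in the knee. Over the 13 genes, 1 was called higher and 3 lower in the hip, beside 20.2% and 16.3% of all genes, with a median of 0.34. In the knee 1 was called higher and 0 lower, beside 9.00% and 6.81% of all genes, with a median of 0.20. Of the 10 endothelial transcription factors, set against the same shares, 1 was called higher and 2 lower in the hip, with a median of 0.37. In the knee 0 of these factors were called. Klf4 was called higher in the hip at 1.10, Sox4 lower at -1.63 and Sox18, a factor of vessel and lymphatic development, lower at -1.16. The call of Klf4 was lost with upper-quartile scaling, at 0.76, and that of Sox18 with the length and GC correction, at -0.38.

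Of the genes of the vessel wall outside the endothelium, Rgs5 and Abcc9 were called higher in both joints, and others of that list were not. Rgs5, a regulator of G-protein signalling in pericytes, had 2239 and 6196 counts in the hip pair and 2364 and 6116 in the knee pair, with log2 ratios of 1.67 (1.60 to 1.74) and 1.03 (0.96 to 1.10). Abcc9, a potassium-channel subunit of pericytes and muscle, had values of 1.44 (1.39 to 1.50) and 1.02 (0.89 to 1.15). Upper-quartile scaling ended both knee calls, at 0.92 for Rgs5 and 0.90 for Abcc9. The length and GC correction ended both hip calls, at 0.79 and 0.93, and the knee call of Abcc9, at 0.85. Myh11, the smooth muscle myosin, was 0.90 in the hip and called higher in the knee at 1.93 (1.70 to 2.18), while Cnn1, a smooth muscle calponin, was called lower in the hip at -1.87. In the same list Pdgfrb had intervals that included 0 in both joints, at 0.06 and -0.08. Pdgfb was -0.48 and -0.44, with the hip value at 0.17 under the length and GC correction. Of 12 pericyte and smooth muscle genes, 2 were called higher and 2 lower in the hip, beside 20.2% and 16.3% of all genes. There 5 intervals lay above and 4 below 0, with a median of 0.16. In the knee 3 were called higher and 0 lower, beside 9.00% and 6.81% of all genes, with a median of 0.49. Skeletal muscle markers moved with the knee values, since all 24 had intervals above 0 and 12 were called higher, and so did adipocyte markers, with 10 of 10 intervals above 0. Chondrocyte markers went the other way in the knee, with 12 of 16 called lower. The part of these tissues in the knee values of the vessel genes was not tested.

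Among 12 secreted inhibitors of vessel growth, 3 were called higher and 4 lower in the hip, beside 20.2% and 16.3% of all genes, with a median of -0.26. In the knee 2 were called higher and 2 lower, beside 9.00% and 6.81% of all genes, with a median of 0.31. Serpinf1, which encodes pigment epithelium-derived factor, was called lower in both joints, with 5355 and 785 counts in the hip pair and 11775 and 6109 in the knee pair, at log2 ratios of -2.57 (-2.68 to -2.46) and -1.29 (-1.33 to -1.24). Timp3, which blocks VEGF-A from VEGFR2 besides inhibiting metalloproteinases, was called higher in both, at 1.56 (1.47 to 1.65) and 2.39 (2.28 to 2.51). Cnmd, the chondromodulin of avascular cartilage, had 5123 and 1754 knee counts, a log2 ratio of -1.89 (-1.96 to -1.81), and 29 and 21 counts in the hip pair, where its interval included 0. Vash1, an inhibitor made by endothelium, was called lower in the hip at -1.22, from 262 and 98 counts, and higher in the knee at 2.96, from 17 and 172 counts. Its hip call was lost with the length and GC correction, at -0.46.

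The genes nearest to a member in the pair of log2 ratios and in the knee over hip control level, by Euclidean distance among 9629 genes with at least 100 counts in every library, were Pcnt, Atosa and Rasgrp3 for Vegfa, at distances of 0.161 to 0.217. For Pecam1 they were Ubap2l, Procr and Exosc10, at 0.0399 to 0.0869, and for Lyve1 they were Egr1, Zfp868 and Kdm5d, at 0.127 to 0.166. Procr, the endothelial protein C receptor, had log2 ratios of 0.51 in the hip and 0.15 in the knee. These distances rest on 4 libraries and 3 values per gene.

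Across the scalings, added counts and the correction for exon length and GC content, Flt1 kept its hip call under all 7 alternatives, and the hip signs of Vegfa, Vegfb, Vegfc, Kdr, Flt4, Pecam1, Cdh5 and Lyve1 also held under all 7, while that of Tek held under 3. Other added counts, or leaving out muscle and erythroid genes before TMM, hardly moved these values, so their agreement says little. The main intervals of Vegfc and Kdr included 0. With the length and GC correction so did those of Cdh5, at -0.03 (-0.11 to 0.06), and Flt4, at -0.12 (-0.33 to 0.09).

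**Figure D5:**
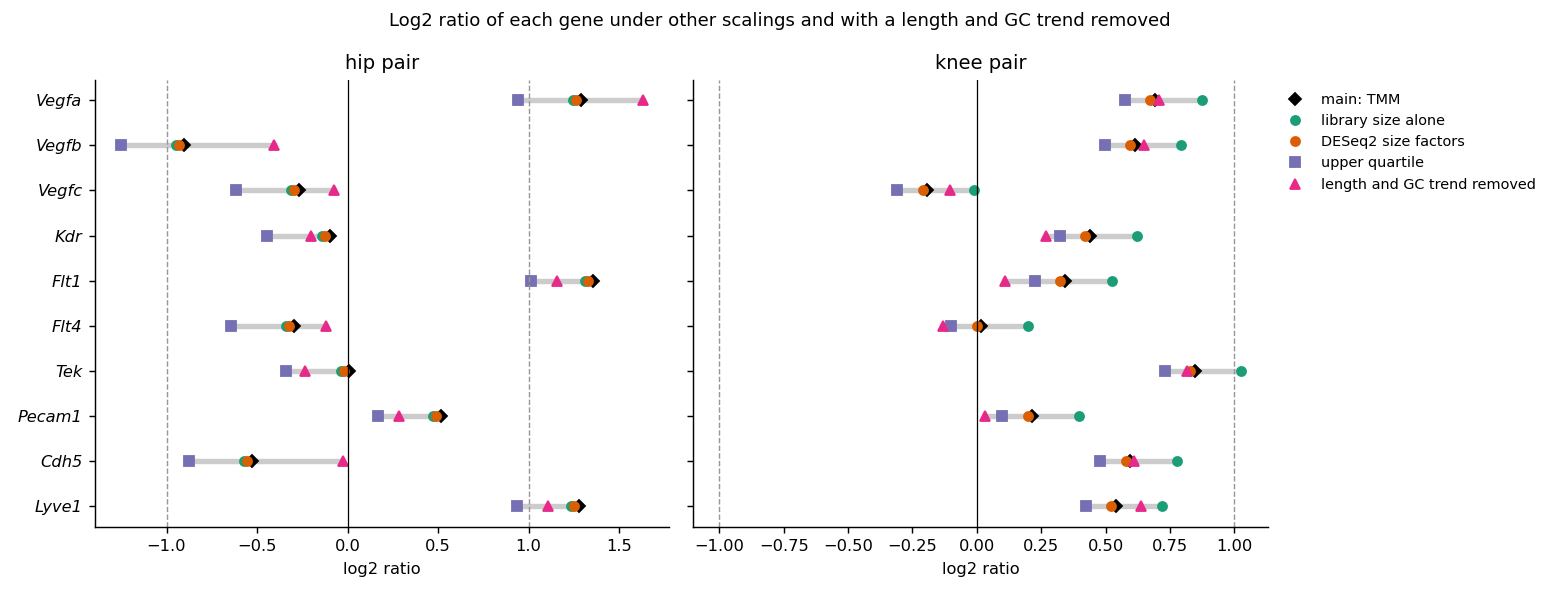
Log2 ratio of each of the 10 genes in the hip (left) and knee (right) under TMM, library size alone, DESeq2 size factors, upper-quartile scaling and TMM with a length and GC trend removed, with a grey bar over the range of all alternatives and dashed lines at -1 and 1. Upper-quartile scaling shifts the hip values down, Vegfa from 1.29 to 0.94 and Lyve1 from 1.28 to 0.93, and library size alone shifts the knee values up, Tek from 0.85 to 1.03.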

How the data were processed

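Poly-A libraries were made from RNA labelled as articular cartilage of hip or knee, 1 per condition and 4 in all. The authors deposited raw counts of reads for each Ensembl gene. The hip counts end with the summary lines of HTSeq, which held 25.8% and 24.6% of the listed reads and were left out, and the knee counts come from a program not given in the sources used here. The study's methods give GRCm39 and STAR, while the submitters' processing notes name mm10, FastQC 0.11.3 and STAR 2.0. Whether counting used strand is not given. The files carry no coordinates, so symbols, GRCm39 positions and exon lengths were taken from GENCODE, with a match for 91.8% of identifiers in the hip and 92.6% in the knee. Opposite-strand gene models that overlap Cdh5, Flt4, Vegfa and Vegfc in GENCODE are in neither count annotation.

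Counts were scaled within each joint by TMM in edgeR 4.0.16 (R 4.3.3), with 0.5 added to each count, and DESeq2 1.42.0 size factors were an alternative. Other steps used Python 3.11.15, numpy 2.4.6, pandas 2.3.3, scipy 1.17.1 and matplotlib 3.10.9. A call needed 10 or more counts in the 2 libraries together, a log2 ratio of 1 or more in either direction and a 95% Clopper-Pearson interval that left out 0. For the correction over length and GC content, the median log2 ratio was subtracted in 20 bins of exon length, followed by 20 bins of GC content, and repeating this for 2 rounds. Depth was 34264456 to 38473120 counts per library. Intervals and floors cover counting error only, since reads without molecular identifiers are not independent molecules.

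The genes described, the lists and the alternatives were chosen with earlier results of these data known. Beside the 10 genes, the text names from each list the largest rise and fall in each joint among genes whose higher library had 100 or more counts, a few genes set by name, and the 3 genes most like Vegfa, Pecam1 and Lyve1. Not each of these is printed. Apln, Abcc9, Pdgfrb, Pdk1, Arnt, Adm, Ankrd37, Car9 in the hip, Selp, Sele in the hip, Reln, Folr2, Foxc2 and Sox18 were named after their values were seen, as were the within-library ratios and the hypoxia motif. Of 7 cell type lists, those of chondrocytes, muscle, adipocytes, macrophages and platelets are used above. Osteoblast and osteocyte markers summed to 1625 and 433 CPM in the hip pair and 23550 and 12200 CPM in the knee pair, and erythroid markers took 0.589% and 0.222% of counts in the hip pair and 9.99% and 4.94% in the knee pair. The steps were tested on simulated counts.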

Additional observations from a re-analysis of the deposited data

Results flagged for a closer look

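In 14 genes named above, 2 of them among the 10 vessel genes, the library labelled Cbfb-deficient lay above its control in one joint and below it in the other, each with a counting interval that excluded 0. Over all 17594 genes tested in both joints, 20.5% did so, and the share of the 10 vessel genes was near that. The 14 are not set against that share, since Apln, Folr2 and Foxc2 among them were named after their values were seen. The difference between the joints was not tested, since each joint has 1 library per condition, and the joints also differ in Cre line, age, control and count table. Among the vessel genes these were Vegfb, with log2 ratios of -0.91 in the hip and 0.61 in the knee, and Cdh5, with -0.53 and 0.60. Tie1 and the apelin genes had the same order of signs, at -0.49 and 0.25 for Tie1, -3.39 and 0.36 for Aplnr and -2.52 and 0.79 for Apln. So did Foxc2, at -1.01 and 0.35, Vash1, at -1.22 and 2.96, and the macrophage gene Folr2, at -1.60 and 1.89. The reverse order was seen for Angpt2, at 0.70 in the hip and -0.28 in the knee, for Efnb2, at 0.58 and -0.70, for Emcn, at 0.23 and -0.57, and for Nrp2, at 0.17 and -0.41. Klf4 had 1.10 in the hip and -0.093 in the knee. The targeted gene Cbfb had a log2 ratio of 0.41 in the hip and -0.071 in the knee, but -0.17 (-0.24 to -0.089) in the hip and 0.066 in the knee with the trend over exon length and GC removed, and 0.11 in the knee by library size alone. Of the 14 genes, 9 kept opposite directions with both intervals off 0 by library size alone, 12 with DESeq2 size factors, 8 with upper-quartile scaling and 7 with the trend removed, where those of Cbfb were exchanged. Emcn and Nrp2 lost them under each of these, Emcn at -0.76 and Nrp2 at -0.031 in the hip with the trend removed. Angpt2 lost them under library size alone, upper-quartile scaling and the trend removal, Foxc2 under the last 2, Klf4 under library size and the trend removal, Cbfb under library size and upper-quartile scaling, Efnb2 under upper-quartile scaling, and Cdh5 and Tie1 under the trend removal.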

How the results depend on the processing

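No model over both joints with the joint as a term was fitted, since the joints differ in Cre driver, age, kind of control and counting, so each ratio stands for 1 joint alone. Of the 10 vessel genes, 3 were called higher in the hip, 1 with upper-quartile scaling and 0 with a log2 ratio of at least 2 required, where 13.97% and 7.33% of all genes were. Called lower in the hip were 0, and 1 with upper-quartile scaling (24.0% of all genes) or with 0.58 required (23.6%). In the knee 0 were called higher, 1 by library size alone (12.3% of all genes) and 4 with 0.58 required (16.5%). Over the 105 genes tested in the 10 vascular lists, with the share of all genes under the same rule in parentheses, 23 hip genes were called higher (20.2%), against 7 with upper-quartile scaling (13.97%), 14 with the trend removed (14.6%) and 2 with a log2 ratio of 2 (7.33%). Called lower in the hip were 15 (16.3%), against 23 with upper-quartile scaling (24.0%), 26 with 0.58 (23.6%) and 4 with 2 (8.52%). In the knee, 9 were called higher (9.00%), against 15 by library size (12.3%), 31 with 0.58 (16.5%) and 3 with 2 (2.82%), and 3 lower (6.81%), against 6 with 0.58 (13.9%) and 0 with 2 (2.67%). The hip log2 ratio of Angpt1 reversed to -0.047 with the trend removed, and the cause was not tested. Upper-quartile scaling shifted the median of all genes by -0.35 in the hip and -0.12 in the knee, and library size alone by 0.18 in the knee. Of all genes called, 55.4% were higher in the hip, against 36.8% with upper-quartile scaling and 68.4% with 10 counts required in each library. Of the ratios of single named genes recomputed under the alternatives, 955 of 1218 stayed within their counting interval. The sign changed in 35, 17 of them with the trend removed. Angpt1 was the 1 called value among these, the other 34 were not called, and in 12 the interval excluded 0 before and after. For the knee, the share higher was 56.9%, against 71.3% by library size, 46.5% by upper quartile and 65.4% with the trend removed.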
